A study of Mus musculus with 6 samples.

Results

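The 10 genes described here follow B cells from the immature to the mature stage, and were measured in mouse bone marrow B220+ cells, the fraction sorted for the B220 form of CD45. They were chosen by symbol, as 10 of the 27761 rows of the deposited table: Cd93 and Cd24a for early cells, and Ms4a1, Fcer2a, Cr2, Cd55, Cd38, Cd1d1, Zfp318 and Bank1 for later ones. Messenger RNA was sequenced in 6 libraries, 3 from wild-type (WT) mice and 3 labelled PELI2 knockout, whose titles read PELI2-CKO. Strain, age, treatment and the driver of the deletion are not given in the sources used here. Whether replicates came from separate animals is not stated either, and p-values then measure the spread between libraries only, which may be technical.

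B cells are made in the marrow from progenitors that rearrange their immunoglobulin genes, first the heavy and then the light chain. The immature cell that first shows surface IgM still carries CD93 and much CD24, and loses CD93 as it matures in the spleen. On the way it gains IgD, CD23 and CD21, and mature cells that recirculate return to the marrow, so a B220+ sort holds early and late stages together. Of the 10 genes, 8 code for proteins of the cell surface. Zfp318 codes for a nuclear protein needed for the long transcripts that give IgD, and Bank1 for a scaffold inside the cell, so neither is a surface marker.

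Values are FPKM, which counts fragments relative to transcript length and library size and so allows levels of different genes to be compared. Steps between low values put library totals at 16600000 to 18100000 reads. Peli2, the targeted gene, had no lower level under the knockout label: it stood at 2.03, 2.54 and 1.99 FPKM in WT and at 3.07, 2.70 and 2.47 FPKM in the others (two-sided exact permutation test, p = 0.2, where 3 against 3 libraries cannot go below 0.1). A gene-level value does not show a deleted exon. Directions are therefore given by label only, and these libraries are called knockout-labelled. Each of 9 B cell genes of any stage (Cd79a, Cd79b, Pax5, Ebf1, Ptprc, Cd22, Cd72, Blk and Cd37) was at 30.2 FPKM or more in every library. The summed FPKM of 14 neutrophil genes was 7800 to 10800 in WT and 12240 to 14440 in the knockout-labelled libraries, with WT replicate 1 the lowest library for all 14. WT replicate 1 was also the highest library for 7 of the 9 B cell genes, against 25.7% of all genes tested.

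In WT the 10 markers ran from Cd24a, at 607 FPKM and the 50th highest row of the table by its mean over the 6 libraries, down to Cr2 at 3.82 FPKM. Between them lay Ms4a1 at 45.9, Cd93 at 39.6, Cd38 at 35.3, Cd55 at 33.2, Fcer2a at 29.5, Cd1d1 at 23.7, Bank1 at 13.4 and Zfp318 at 12.1 FPKM. From Ms4a1 to Cd1d1 each gene's WT range overlapped that of the next, as did those of Bank1 and Zfp318, so these neighbours are not ordered beyond their spread. Gaps without overlap lay below Cd24a, below Cd1d1 and below Zfp318. In the knockout-labelled libraries Cd93, the third in WT, came after Fcer2a and Cd55, at 29.5 FPKM, and was followed by Cd38 at 27.7 FPKM. The ranges of neighbours in this stretch overlapped too, so this order is not beyond the spread either.

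All 10 markers passed the filter of 1 FPKM in at least 3 libraries. None passed the limma test over all genes (adjusted p under 0.05), where 3 of 12953 genes or 0.0232% did, all of them higher (0.0232%) and 0% lower. With p under 0.05 before adjustment the same fit had 3 markers lower and 0 higher, where 18.1% of all genes tested passed, 8.88% lower and 9.2% higher. The groups were apart for 4 markers, all of them lower in the knockout-labelled libraries: Cd93, Cd24a, Cd38 and Cd1d1. Groups were apart for 25.8% of all genes tested, 14.3% lower and 11.5% higher. The median log2 fold change of the 10 markers was -0.12, with 6 lower and 4 higher, and that of all genes tested was -0.01, with 53.6% lower. With libraries scaled to 3 B cell genes (Cd79a, Cd79b and Pax5), Cd24a, Cd38, Ms4a1 and Cd55 turned to positive values. In the plot of FPKM by library Cd93, Cd24a, Cd38 and Cd1d1 separate the groups, and the other 6 do not.

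**Figure D1:**
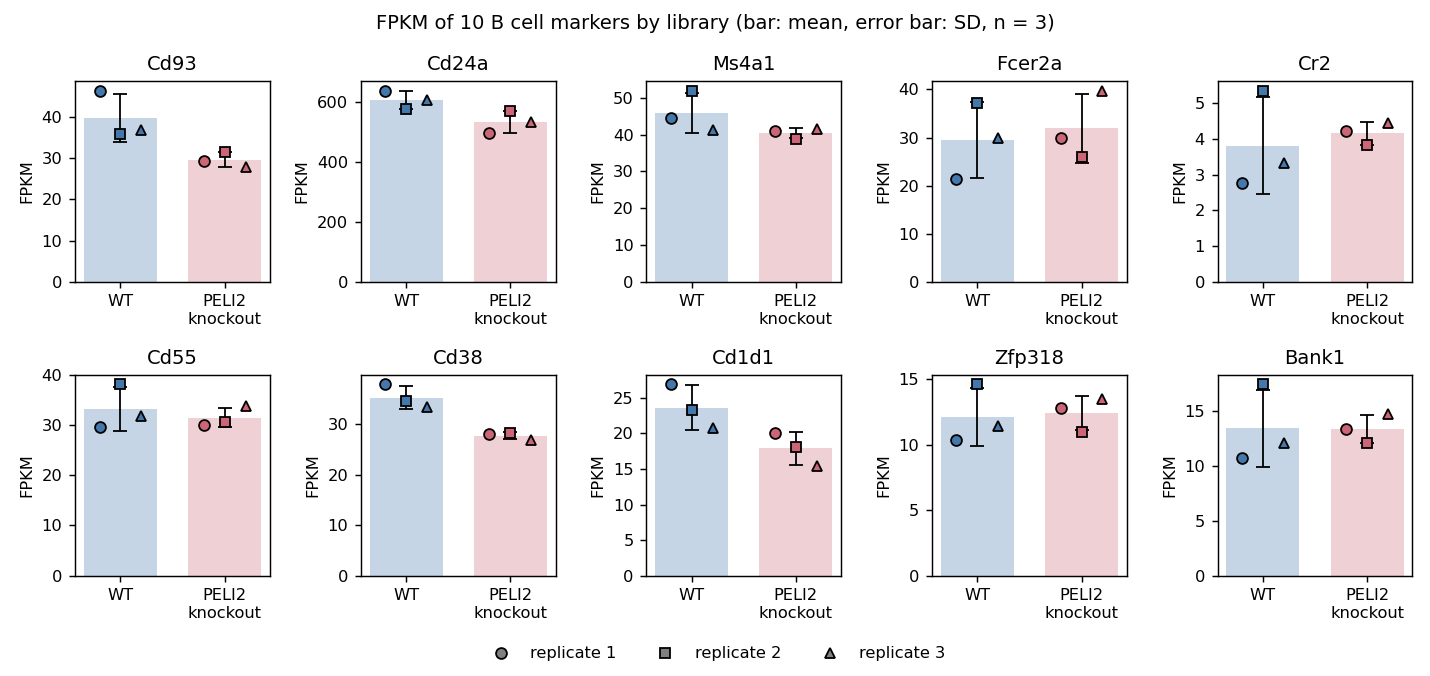
FPKM of each of the 10 markers (y axis, from 0, with its own scale in each panel) in the WT and PELI2 knockout-labelled groups. Bars are means, error bars SD over n = 3 libraries, and point shapes give the replicate number, which was not taken to pair libraries. Cd93, Cd24a, Cd38 and Cd1d1 have every WT point above every knockout-labelled point.

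Cd93 (ENSMUSG00000027435, GRCm38 chromosome 2, 148436640 to 148443563, minus strand) codes for the C1q receptor-like protein that marks immature and transitional B cells. It stood at 46.3, 35.7 and 36.8 FPKM in WT replicates 1 to 3 and at 29.4, 31.4 and 27.8 FPKM in the knockout-labelled replicates 1 to 3. WT replicate 1 was highest, and the groups did not overlap. Means were 39.6 ± 5.84 and 29.5 ± 1.82 FPKM (SD, n = 3 each), a ratio of 0.745. The log2 fold change was -0.40 with a standard error of 0.105 and a 95% interval of -0.66 to -0.15 (limma, adjusted p = 0.168). The gene has 1 annotated transcript of 6677 bases, so its lowest value rests on about 3346 reads. Clec14a and Cd248, relatives of Cd93 in the same lectin family, were near the floor, at 0.0121 to 0.0888 and 0.0226 to 0.229 FPKM over the 6 libraries. Progenitors and monocytes also carry CD93. The 10 monocyte and macrophage genes listed had summed FPKM of 688.9 to 961.7 in WT and 1026 to 1267 in the knockout-labelled libraries. The 7 stem and progenitor cell genes had 47.4 to 65.4 in WT and 67.4 to 80.7 in the others. The part of these cells in the value of Cd93 was not tested.

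Cd24a (ENSMUSG00000047139, chromosome 10, 43578284 to 43584265, plus strand) codes for the small, heavily glycosylated heat-stable antigen, high on B cell precursors and immature B cells and low on mature ones. It stood at 638, 577 and 605 FPKM in WT and at 498, 569 and 533 FPKM in the knockout-labelled libraries. The groups did not overlap, but the gap between WT replicate 2 and knockout-labelled replicate 2 was small. Means were 607 ± 30.4 and 533.5 ± 35.6 FPKM, a ratio of 0.879, and the log2 fold change was -0.19 with a 95% interval of -0.38 to 0.01 (limma, adjusted p = 0.288). Red cell precursors and granulocytes carry CD24 too. The summed FPKM of 10 erythroid genes was 8788 to 13130 in WT and 13040 to 16410 in the knockout-labelled libraries, and these ranges overlapped. The part of these cells in the value of Cd24a was not tested. In bulk RNA, fewer cells of a type and less RNA per cell cannot be told apart.

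Cd38 (ENSMUSG00000029084, chromosome 5, 43868553 to 43912375, plus strand), an ectoenzyme that makes cyclic ADP-ribose, had the smallest standard error of the 10 markers. It stood at 37.9, 34.6 and 33.3 FPKM in WT and at 28.0, 28.3 and 26.9 FPKM in the knockout-labelled libraries, so the 3 knockout-labelled values lay close together and below each WT value. Means were 35.3 ± 2.34 and 27.7 ± 0.74 FPKM, a ratio of 0.786. The log2 fold change was -0.33 with a standard error of 0.0589 (95% interval -0.48 to -0.19, limma, adjusted p = 0.137). An antisense gene, Gm16015, overlaps Cd38 and stood at 23.9, 17.27 and 17.39 FPKM in WT and at 13.73, 19.1 and 15.05 FPKM in the knockout-labelled libraries. Of the 50-base stretches of the Cd38 transcripts, 1.2% also occur in any other gene, on either strand. Of these 46 stretches Crot and Fam169b hold 32 each, so the 1.2% is not a share of Gm16015 alone. Any reads in a stretch shared by the pair cannot be told apart without strand.

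Cd1d1 (ENSMUSG00000028076, chromosome 3, 86995834 to 86999441, minus strand) codes for the CD1d molecule that shows lipid antigens to NKT cells and is high on marginal zone B cells. It stood at 26.9, 23.3 and 20.7 FPKM in WT and at 20.1, 18.1 and 15.4 FPKM in the knockout-labelled libraries. The groups did not overlap, though WT replicate 3 lay just above knockout-labelled replicate 1. Means were 23.7 ± 3.10 and 17.9 ± 2.33 FPKM, a ratio of 0.756, and the log2 fold change was -0.38 with a standard error of 0.121 (95% interval -0.67 to -0.09, limma, adjusted p = 0.208). Cd1d2, a near copy, held 19.1% of the 50-base stretches of the Cd1d1 transcripts in GENCODE M21, so some reads could have gone to either gene. Cd1d2 stood at 2.96, 1.89 and 2.28 FPKM in WT and at 1.48, 1.92 and 1.85 FPKM in the knockout-labelled libraries, well under Cd1d1 in each library.

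Ms4a1 (ENSMUSG00000024673, chromosome 19, 11249675 to 11266241, minus strand), which codes for CD20, a membrane protein present from the pre-B stage on, stood at 44.5, 52.0 and 41.2 FPKM in WT. The knockout-labelled libraries had 41.0, 38.8 and 41.4 FPKM. The groups overlapped through WT replicate 3, which lay below knockout-labelled replicate 3. The log2 fold change was -0.17 with a 95% interval of -0.38 to 0.04 (limma, adjusted p = 0.351). The mast cell gene Ms4a2 of the same family stood at 0.622 to 1.65 FPKM over the 6 libraries, Ms4a4b at 2.71 to 3.47, Ms4a4c at 7.41 to 15.1, Ms4a6b at 4.15 to 5.47 and Ms4a7 at 0.395 to 0.635 FPKM. Ms4a3, a gene of granulocyte and monocyte progenitors, stood at 5.51, 11.3 and 9.79 FPKM in WT and at 22.4, 24.5 and 20.8 FPKM in the knockout-labelled libraries (limma, adjusted p = 0.137). Ms4a6c, a monocyte gene, stood at 5.92, 7.63 and 7.10 FPKM in WT and at 12.2, 11.1 and 9.75 FPKM in the others (limma, adjusted p = 0.137), and Ms4a6d at 0.683, 1.14 and 1.10 against 2.32, 2.03 and 1.12 FPKM.

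The remaining 5 markers shared their lowest library. Fcer2a, Cr2, Cd55, Zfp318 and Bank1 were each lowest in WT replicate 1 and highest in WT replicate 2 or knockout-labelled replicate 3. Of all genes tested, 25.9% were lowest in WT replicate 1, and 11.4% were also highest in one of those libraries. This order was noticed in the values. It was also that of 7 of 14 neutrophil genes, 7 of 10 monocyte and macrophage genes and 1 of 9 B cell genes of any stage. The highest library differed, however. Cr2, Cd55, Zfp318 and Bank1 were highest in WT replicate 2, where 0 neutrophil and 0 monocyte and macrophage genes were highest. The 7 neutrophil and 7 monocyte and macrophage genes with this order had knockout-labelled replicate 3 as the highest, as Fcer2a did. The spread within WT, not a difference between the groups, was the main feature of these genes.

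Fcer2a (ENSMUSG00000005540, chromosome 8, 3681737 to 3694175, minus strand) codes for CD23, the low-affinity IgE receptor of follicular B cells. It stood at 21.4, 37.2 and 30.0 FPKM in WT and at 29.8, 26.1 and 39.8 FPKM in the knockout-labelled libraries. The highest WT library had 1.74 times the lowest, and the groups overlapped widely. The log2 fold change was 0.12 with a 95% interval of -0.42 to 0.66 (limma, adjusted p = 0.805), so the fit allows a fold from 0.75 to 1.58 on the FPKM + 1 scale. Its direction turned to -0.09 without WT replicate 1 and to -0.05 without knockout-labelled replicate 3.

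Cr2 (ENSMUSG00000026616, chromosome 1, 195136811 to 195176716, minus strand) codes for the complement receptors CD21 and CD35, which bind C3 fragments. It had the lowest level of the 10, at 2.77, 5.35 and 3.32 FPKM in WT and 4.23, 3.82 and 4.44 FPKM in the knockout-labelled libraries. The 3 knockout-labelled values lay inside the WT range. The log2 fold change was 0.13 with a 95% interval of -0.31 to 0.58 (limma, adjusted p = 0.731), and it was -0.02 without WT replicate 1. Its lowest value is about 306 reads if they came from its longest annotated transcript of 6212 bases. The neighbouring relative Cr1l, which codes for the complement regulator Crry, stood at 6.61, 7.36 and 6.36 FPKM in WT and 6.92, 7.13 and 6.82 FPKM in the others, a narrower range than that of Cr2.

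Cd55 (ENSMUSG00000026399, chromosome 1, 130439027 to 130462744, minus strand) codes for decay-accelerating factor, which protects cells from complement. It stood at 29.7, 38.1 and 31.7 FPKM in WT and at 30.1, 30.7 and 33.8 FPKM in the knockout-labelled libraries. The knockout-labelled values again lay inside the WT range, and the log2 fold change was -0.07 with a 95% interval of -0.30 to 0.17 (limma, adjusted p = 0.747). Without WT replicate 2 it was 0.03. Its near copy Cd55b was at 0.07 to 0.298 FPKM over the 6 libraries, while 9.12% of the 50-base stretches of Cd55 also occur in another gene. The antisense gene Gm16083 that overlaps Cd55 reached 0.165 FPKM at most. Among other complement regulators, Cd59a stood at 2.03, 2.52 and 3.07 FPKM in WT and at 2.65, 3.66 and 4.40 FPKM in the knockout-labelled libraries, and Cd81, a membrane partner of CD21, at 26.6 to 30.9 FPKM over all 6. Of 6 complement receptors and regulators besides the markers 3 were tested. The limma fit called 0 of them, also with p under 0.05 before adjustment.

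Zfp318 (ENSMUSG00000015597, chromosome 17, 46383731 to 46420920, plus strand) stood at 10.3, 14.6 and 11.4 FPKM in WT and at 12.8, 10.9 and 13.5 FPKM in the knockout-labelled libraries. The groups overlapped, and the log2 fold change was 0.04 with a 95% interval of -0.27 to 0.35 (limma, adjusted p = 0.901). It turned to -0.06 without WT replicate 1, to -0.02 without knockout-labelled replicate 3, and to -0.03 at a common total. Ighd, the constant region of IgD whose transcript depends on Zfp318, and Ighm, that of IgM, were chosen for comparison after their values were seen. Ighd stood at 143, 194 and 159 FPKM in WT and at 159, 149 and 191 FPKM in the knockout-labelled libraries. Ighm stood at 2898, 2351 and 2258 FPKM in WT and at 2086, 2111 and 1979 FPKM in the others. The ratio of Ighd to Ighm within a library was 0.0493, 0.0827 and 0.0706 in WT and 0.0763, 0.0707 and 0.0965 in the knockout-labelled libraries, lowest in WT replicate 1, as Zfp318 was. These ratios overlapped between the groups.

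Bank1 (ENSMUSG00000037922, chromosome 3, 136053363 to 136326066, minus strand), a scaffold that links the B cell receptor and its kinases to calcium release, stood at 10.7, 17.4 and 12.1 FPKM in WT. The knockout-labelled libraries had 13.3, 12.1 and 14.7 FPKM, all within the WT range. Means were nearly equal, at 13.4 ± 3.53 and 13.4 ± 1.29 FPKM, and the log2 fold change was 0.02 with a 95% interval of -0.38 to 0.42 (limma, adjusted p = 0.962). It turned negative without WT replicate 1 (-0.115), without WT replicate 3 (-0.04), without knockout-labelled replicate 3 (-0.04) and at a common total (-0.05). Among genes whose products work with Bank1 or Zfp318, the kinase Lyn stood at 80.0, 77.4 and 72.0 FPKM in WT and at 69.6, 71.4 and 65.8 FPKM in the knockout-labelled libraries (limma, adjusted p = 0.266). The calcium channel gene Itpr2 stood at 11.9, 11.2 and 11.003 against 10.3, 10.2 and 9.23 FPKM, and the ubiquitin ligase gene Traf6 at 20.5, 16.4 and 15.7 against 14.5, 15.6 and 13.04 FPKM. Myd88, the adaptor of Toll-like receptors, was the one with every knockout-labelled value higher, at 19.2, 19.4 and 19.2 FPKM against 17.26, 17.21 and 18.1 FPKM in WT. Of these 9 partners, Ighm and Ighd included, 5 were apart and lower and 1 apart and higher. Of all genes tested 14.3% were apart and lower and 11.5% apart and higher. With p under 0.05 before adjustment, 1 partner was higher and 2 were lower (limma). The shares of all genes tested were 9.2% higher and 8.88% lower. After adjustment over all genes 0 passed.

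**Figure D2:**
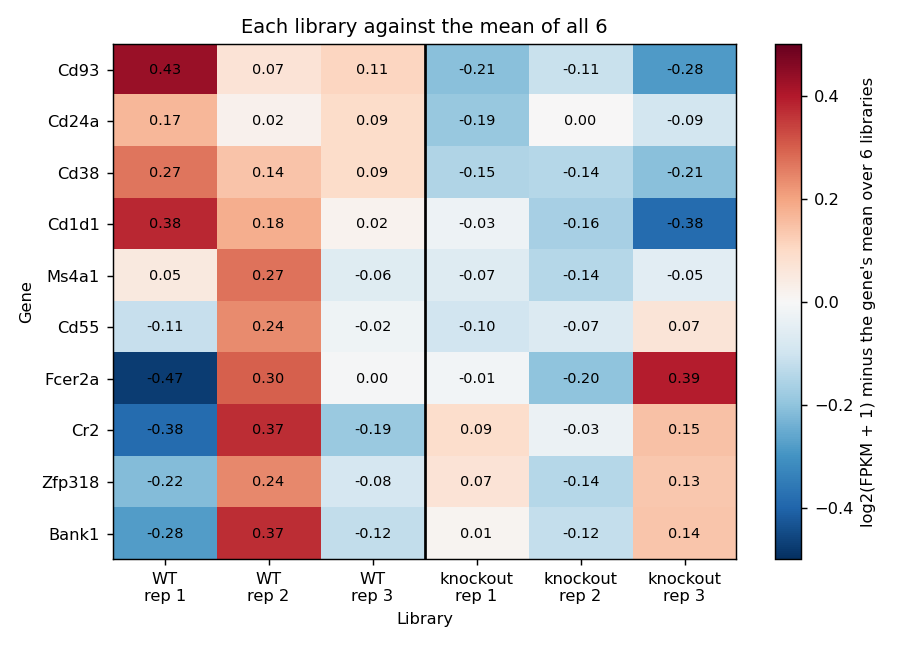
Each library's log2(FPKM + 1) minus the gene's mean over all 6 libraries, for the 10 markers (rows) and the 3 WT and 3 knockout-labelled libraries (columns), with the value in each cell. WT replicate 1 is the highest library for Cd93, Cd24a, Cd38 and Cd1d1 and the lowest for Cd55, Fcer2a, Cr2, Zfp318 and Bank1.

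The map of deviations from each gene's mean shows these opposite orders. WT replicate 1 was the highest library for 4 markers and the lowest for the 5 above, and WT replicate 2 was the highest for 5. In WT replicate 1 Cd93 lay 0.43 above and Fcer2a 0.47 below its mean (log2). In knockout-labelled replicate 3, Cd1d1 lay 0.38 below its mean and Fcer2a 0.39 above it. Cd38 and Cd1d1, counted with the later markers, were highest in WT replicate 1, as the early ones were.

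Promoter sequences are shown for the 5 genes that had this order, as the 250 bases before a RefSeq start (GRCm38.p6), read in the direction of the gene. RefSeq starts were matched for 6 of the 10 markers. Capitals mark CAGGTG or its reverse complement, the E-box that E proteins such as E2A bind in B cells.
Cr2: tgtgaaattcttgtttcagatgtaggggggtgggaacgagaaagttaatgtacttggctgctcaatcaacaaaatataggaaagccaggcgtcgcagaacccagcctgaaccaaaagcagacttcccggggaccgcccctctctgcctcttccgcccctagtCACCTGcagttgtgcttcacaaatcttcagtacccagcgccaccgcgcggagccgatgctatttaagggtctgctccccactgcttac
Bank1: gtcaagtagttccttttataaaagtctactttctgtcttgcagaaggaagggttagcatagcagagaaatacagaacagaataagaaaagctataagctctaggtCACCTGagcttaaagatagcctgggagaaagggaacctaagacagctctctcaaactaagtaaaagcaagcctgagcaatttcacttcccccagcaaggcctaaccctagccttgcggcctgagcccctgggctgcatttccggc
Fcer2a: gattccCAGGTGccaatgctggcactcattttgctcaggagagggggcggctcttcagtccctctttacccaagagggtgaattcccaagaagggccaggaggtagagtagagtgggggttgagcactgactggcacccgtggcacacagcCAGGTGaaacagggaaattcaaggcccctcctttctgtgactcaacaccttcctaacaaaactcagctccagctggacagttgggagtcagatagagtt
Cd55: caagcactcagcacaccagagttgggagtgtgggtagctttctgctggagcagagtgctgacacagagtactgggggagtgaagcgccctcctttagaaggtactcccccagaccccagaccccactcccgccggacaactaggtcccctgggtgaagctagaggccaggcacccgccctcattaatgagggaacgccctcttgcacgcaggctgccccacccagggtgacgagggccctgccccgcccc
Zfp318: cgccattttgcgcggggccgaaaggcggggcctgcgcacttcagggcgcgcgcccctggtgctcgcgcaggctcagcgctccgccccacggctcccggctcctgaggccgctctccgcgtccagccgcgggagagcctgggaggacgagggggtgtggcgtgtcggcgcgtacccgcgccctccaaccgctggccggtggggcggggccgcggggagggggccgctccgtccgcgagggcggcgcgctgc

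The Cr2 stretch is chr1:195176720-195176969 (minus strand), that of Bank1 chr3:136326067-136326316 (minus), that of Fcer2a chr8:3690862-3691111 (minus), that of Cd55 chr1:130462745-130462994 (minus) and that of Zfp318 chr17:46383516-46383765 (plus). Fcer2a has 3 RefSeq starts, of which the one with the motif is shown. The E-box was found, on either strand, before 3 of 8 RefSeq starts of the markers and in 17.2% of 32851 such stretches of all genes. The Ikaros core TGGGAA was in 4 of 8, against 21.6% of all, and the PU.1 core GAGGAA in 0 of 8, against 23.3% of all. In 1 of the 8, that of Fcer2a, an Ikaros core shares letters with an E-box. These matches describe letters in the window and no binding was measured.

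The balance of early to late was read within each library as a ratio of FPKM, which does not depend on scaling between libraries. Cd93 over Fcer2a was 2.17, 0.962 and 1.23 in WT and 0.984, 1.21 and 0.699 in the knockout-labelled libraries. WT replicate 1 was the highest and knockout-labelled replicate 3 the lowest, and WT replicates 2 and 3 lay close to knockout-labelled replicates 1 and 2. Cd93 over Cr2 was 16.7, 6.68 and 11.1 in WT and 6.95, 8.23 and 6.26 in the others, and Cd93 over Ms4a1 was 1.04, 0.688 and 0.893 against 0.716, 0.81 and 0.671. Cd24a over Fcer2a was 29.8, 15.5 and 20.2 in WT and 16.7, 21.8 and 13.4 in the knockout-labelled libraries. For all 16 pairs of an early and a later marker the groups overlapped. Against Cd1d1, Cd93 was at a nearly fixed ratio of 1.68 ± 0.126 in WT and 1.66 ± 0.179 in the knockout-labelled libraries (SD, n = 3 each), and against Cd38 at 1.12 ± 0.0963 and 1.06 ± 0.0421.

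**Figure D3:**
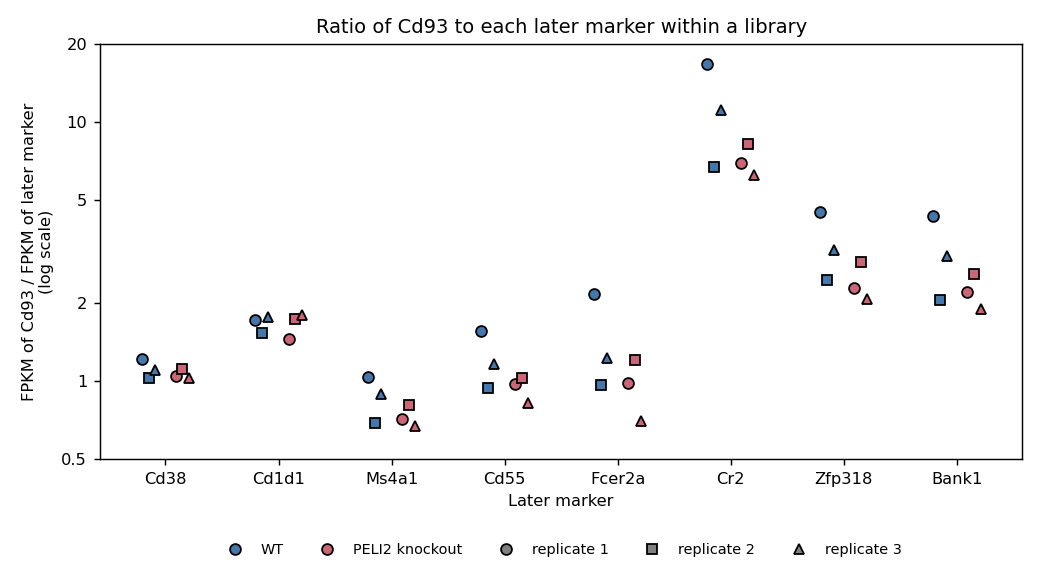
FPKM of Cd93 divided by the FPKM of each of the 8 later markers (x axis) in the same library, on a log y axis. Point colour gives the group and shape the replicate number. The groups overlap for each marker, and WT replicate 1 is the highest point for Ms4a1, Cd55, Fcer2a, Cr2, Zfp318, Bank1 and Cd38.

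The markers were also compared with genes that B cells express at every stage. Of the 9 such genes 8 had a lower and 1 a higher mean in the knockout-labelled libraries, and their median log2 fold change was -0.33. Groups were apart for 7, all lower, against 14.3% of all genes tested that were apart and lower. None passed over all genes (limma). Cd79a, a signalling chain of the B cell receptor, stood at 724, 602 and 583 FPKM in WT and at 488, 504 and 516 FPKM in the knockout-labelled libraries (limma, adjusted p = 0.189). Cd79b, its partner chain, stood at 551, 472 and 428 against 379, 360 and 392 FPKM. The transcription factor Ebf1 stood at 47.3, 40.4 and 39.2 against 30.4, 31.7 and 30.2 FPKM, and Pax5, which holds cells in the B lineage, at 123, 108 and 98.7 against 85.5, 86.7 and 80.1 FPKM. Ptprc, the gene of CD45 and so of the B220 form used in the sort, was the gene with the higher mean, at 40.1 to 45.1 FPKM in WT and 41.9 to 44.2 FPKM in the others.

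Cd93 over Cd79a was 0.064, 0.0594 and 0.0631 in WT and 0.0602, 0.0624 and 0.0539 in the knockout-labelled libraries, so the groups overlapped in the ratio where they were apart in Cd93 itself. Cd38 over Cd79a was 0.0523, 0.0575 and 0.0572 in WT and 0.0575, 0.0561 and 0.0521 in the others. With each library scaled by the mean log2 value of Cd79a, Cd79b and Pax5, a scaling chosen after seeing the data, all genes shifted by a median of 0.35 (log2), and 5049 genes passed, 5039 higher and 10 lower (limma). On that scale the log2 fold change of Cd93 was -0.05 (95% interval -0.28 to 0.18), that of Cd38 0.02 (-0.20 to 0.24) and that of Cd1d1 -0.03 (-0.29 to 0.23). Cd24a was at 0.17 (-0.14 to 0.47) and Ms4a1 at 0.18 (-0.10 to 0.46). Fcer2a was at 0.47 (-0.056 to 1.004), Cd55 at 0.29 (-0.04 to 0.61) and Bank1 at 0.37 (-0.05 to 0.80). Cr2, at 0.49 (0.01 to 0.96), and Zfp318, at 0.39 (0.02 to 0.76), had unadjusted intervals above 0. The median of all genes tested was 0.34 on this scale, inside both of these intervals. After adjustment none of the 10 passed (limma), with the smallest adjusted p at 0.0705 for Zfp318. The plot of changes on both scales shows this shift for each marker.

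**Figure D4:**
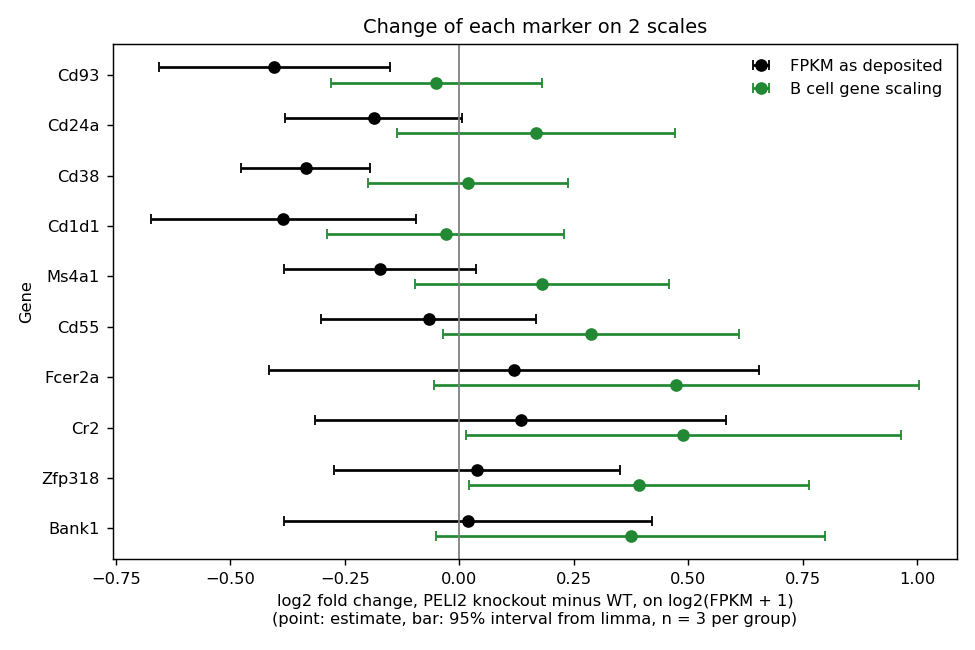
Log2 fold change of each marker, PELI2 knockout-labelled minus WT, on log2(FPKM + 1) as deposited (black) and after scaling each library to Cd79a, Cd79b and Pax5 (green), with 95% intervals from limma (n = 3 libraries per group). Cd93, Cd38 and Cd1d1 have intervals below 0 as deposited and intervals around 0 after scaling, while those of Cr2 and Zfp318 lie above 0 after scaling. After scaling the median of all genes tested is 0.34, inside the intervals of Cr2 and Zfp318.

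Stage genes of pro-B and pre-B cells, which precede the immature cell, mostly had lower means in the knockout-labelled libraries. Of 16 such genes 13 had a lower and 3 a higher mean, and their median log2 fold change was -0.35. Groups were apart for 6 lower and 3 higher, against 14.3% lower and 11.5% higher of all genes tested. None passed over all genes (limma). Before adjustment, p was under 0.05 for 7 lower and 3 higher ones, against 8.88% lower and 9.2% higher of all genes tested. Lef1, a transcription factor of pro-B cells, stood at 8.09, 6.59 and 8.80 FPKM in WT and at 5.34, 5.27 and 5.49 FPKM in the knockout-labelled libraries. The 3 higher genes were Spn, Flt3 and Kit, of which Flt3 and Kit are also on the list of stem and progenitor cell genes. Spn, which codes for CD43, stood at 36.8, 36.6 and 36.1 against 42.1, 40.7 and 43.5 FPKM. The cytokine receptor gene Flt3 stood at 9.42, 9.93 and 11.3 against 16.01, 13.8 and 12.1 FPKM, and Kit at 2.57, 3.11 and 3.06 against 4.17, 3.55 and 3.97 FPKM. Which cells the reads of the 16 genes came from was not tested. Bst1, a relative of Cd38 on pre-B and myeloid cells, overlapped between the groups, at 12.8, 10.8 and 12.1 against 9.32, 12.8 and 10.2 FPKM.

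Genes of mature recirculating B cells were listed as companions of the later markers. Of 18 tested 11 had a positive and 7 a negative log2 fold change, with a median of 0.05. Of the 18, 5 were apart and lower and 1 apart and higher, against 14.3% lower and 11.5% higher of all genes tested. Before adjustment, p was under 0.05 for 1 higher and 4 lower genes, against 9.2% higher and 8.88% lower of all genes tested. After it 0 passed (limma). WT replicate 1 was the lowest library for 10 of the 18, against 25.9% of all genes tested. For 9 of the 10 WT replicate 2 or knockout-labelled replicate 3 was the highest, the order of Fcer2a, Cr2, Cd55, Zfp318 and Bank1. Of all genes tested 11.4% had this order. The 4 genes with the smallest p did not have it. Cd40, the receptor for T cell help, stood at 10.4, 10.4 and 10.4 FPKM in WT and at 8.51, 8.20 and 8.63 FPKM in the knockout-labelled libraries (limma, adjusted p = 0.137). Tnfrsf13c, the receptor for the survival factor BAFF, stood at 74.2, 71.7 and 66.1 against 58.5, 54.6 and 59.1 FPKM, and S1pr1, a receptor for exit into the blood, at 83.6, 70.3 and 70.1 against 59.0, 59.6 and 54.6 FPKM. Itgb7, an integrin chain for homing to the gut, was higher in each knockout-labelled library, at 63.7, 56.7 and 58.3 FPKM against 35.8, 50.7 and 47.8 FPKM in WT.

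Marginal zone and B-1 genes, listed beside Cr2 and Cd1d1, gave 7 tested of 10, with 3 means higher, 4 lower and -0.01 as the median log2 fold change. Groups were apart for 3, all lower, against 14.3% of all genes tested that were apart and lower. The Notch target Dtx1 stood at 12.8, 10.9 and 10.9 FPKM in WT and at 10.1, 9.80 and 9.24 FPKM in the knockout-labelled libraries. The transcription factor gene Bhlhe41 stood at 5.22, 5.18 and 4.42 against 4.05, 4.30 and 3.48 FPKM, and Mzb1 at 134, 129 and 143 against 128, 115 and 126 FPKM. Cd5, a marker of B-1a and T cells, overlapped, at 1.54 to 1.63 FPKM in WT and 1.59 to 2.35 FPKM in the others. Before adjustment, p was under 0.05 for 2 lower and 0 higher genes of the 7, against 8.88% lower and 9.2% higher of all genes tested. After it 0 passed (limma).

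Means of most markers of other cells were higher under the knockout label, beside all of these results. Each of the 14 neutrophil, 10 monocyte and macrophage, 10 erythroid and 8 plasmacytoid dendritic cell genes tested had a higher mean in the knockout-labelled libraries, with median log2 fold changes of 0.43, 0.48, 0.40 and 0.32. Summed FPKM of the plasmacytoid dendritic cell genes, whose cells carry B220 too, was 439.9 to 486.7 in WT and 548.3 to 662.9 in the others. The summed FPKM of 11 T and NK cell genes overlapped, at 86.1 to 108.1 and 107.3 to 135.1, as did that of 6 plasma cell genes, at 518 to 587.6 and 532.4 to 717.4. That of 7 stem and progenitor cell genes was 47.4 to 65.4 in WT and 67.4 to 80.7 in the others, and that of 5 megakaryocyte genes was 30.7 to 48.7 and 26.8 to 65.9. No gene of these lists was at 0 in any library. The part of these cells in the marker values was not tested.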

How the data were processed

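The values are FPKM per gene and library in 1 table that the authors deposited, with no scaling across libraries stated. Of tools, the submitters' processing notes list Bowtie2 2.2.5, DESeq2 1.4.5, HISAT2 2.0.4 and RSEM 1.2.12 without saying what each did. The build they list is GRCm38.p6. Per the labels' protocols, mRNA was taken with oligo(dT) beads and read as single ends of 50 bases, and strand use is not given in the sources used here.

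No count model was run, FPKM being a normalized unit. Rows that reached 1 FPKM in 3 or more libraries (12953 of 27761) were tested as log2(FPKM + 1) by limma 3.58.1 under R 4.3.3 (lmFit, eBayes with a trend, two-sided, no replicate block), with Benjamini-Hochberg adjustment over all of them and a threshold of 0.05. The fit was tested on simulated data. Library totals were found as the number that makes the low FPKM of genes with 1 annotated transcript whole reads within 0.03 reads, for values under 6 reads. Between 99.3% and 99.5% of these values came out whole. Peli2 had an exact permutation test (scipy 1.17.1). Figures were drawn with matplotlib 3.10.9.

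All 10 markers are described, along with up to 4 genes of smallest p from each gene list and every listed relative of a marker. The markers and lists were chosen with earlier results of these data known. Alternatives were pseudocounts of 0.1 and 0.5, a filter of 5 FPKM or none at all, scaling by median of ratios, a common total of 1000000, library weights, quantile normalization, a replicate block, eBayes without a trend and each library left out. Scaling to 3 B cell genes was added after seeing the data, in place of a planned scaling that is not reported here. Groups were set by the titles.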

Additional observations from a re-analysis of the deposited data

How the results depend on the processing

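None of the 10 markers passed the threshold under any of the alternatives run, and Cd93 and Cd1d1 kept their direction in all 17 (log2 fold changes of -0.485 to -0.05 and -0.471 to -0.0297). Cr2 gave no value with a filter of 5 FPKM, since it is lower than that. Scaling to the 3 B cell genes, chosen after seeing the data in place of a planned scaling that is not reported, turned Cd24a to 0.167, Ms4a1 to 0.181, Cd55 to 0.288 and Cd38 to 0.0195. A common total turned Zfp318 to -0.0317 and Bank1 to -0.0506, and library weights turned them to -0.00628 and -0.0459. With each library left out in turn, log2 fold changes ran from -0.0865 to 0.298 for Fcer2a, from -0.0238 to 0.353 for Cr2, from -0.14 to 0.0348 for Cd55, from -0.0605 to 0.169 for Zfp318 and from -0.115 to 0.21 for Bank1, so their directions rest on single libraries. The number of genes passing over the table was 3, against 1 with a filter of 5 FPKM, 6 with eBayes without a trend, 5049 with scaling to B cell genes, and 1 to 13 with a library left out. It was 1 without PELI2 knockout replicate 1 or 2 and 13 without replicate 3. The cause was not tested. With the replicate number as a block, 4 genes and none of the markers passed, and Cd93 stayed at -0.404 (limma, adjusted p = 0.17). The block lowered the standard error of some markers, as for Cd1d1 from 0.121 to 0.0442. It raised that of others, as for Cd24a from 0.0809 to 0.0895. Deviations of same-numbered libraries correlated at 0.101, 0.0362 and 0.0901 across genes. Those of differently numbered libraries correlated at -0.107 to 4.53e-05, all lower. The values were small and the titles state no pairing, so the numbers were not taken to pair libraries, but a pairing was not excluded. The 95% intervals of Fcer2a reach from 0.75 to 1.58 times, and those of Bank1 from 0.768 to 1.34 times.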
